A study of Homo sapiens with 4 samples.

Results

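The 10 genes described here are the receptors EGFR, ERBB2 and ERBB3, the ligands AREG, EREG, HBEGF, TGFA, NRG1 and BTC, and the receptor inhibitor ERRFI1. They were taken by gene name from a table of 20372 genes, in which all 10 had a row. Their RNA was measured in TPC1, a single established thyroid cancer cell line of human origin driven by a CCDC6-RET fusion. The first group (RETi, 2 libraries) received BLU6864, a selective inhibitor of RET, for 24 h, and the other (RETi + FGFRi, 2 libraries) received the same inhibitor plus BGJ398, which blocks FGFR, for the same time. Both groups therefore carried the RET inhibitor, and neither vehicle nor BGJ398 by itself was analysed here. The labels state a dose of 100 µM, but the study's methods for these treatments give 100 nM of each inhibitor. Its blots of TPC1 cells also used BLU6864 at 100 nM, and the label's unit is not explained in the sources. The comparison asks how the EGFR family transcripts respond to adding the FGFR inhibitor.

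EGFR family receptors are tyrosine kinases of the plasma membrane that pair with each other when a ligand binds, and active pairs feed the RAS-ERK and PI3K-AKT pathways. EGFR binds TGFA, AREG, EREG, HBEGF and BTC, ERBB3 binds neuregulins such as NRG1, and ERBB2 has no known ligand and acts as a partner of the others. ERBB3 has very weak kinase activity of its own and signals through its partner, with many docking sites for PI3K. ERRFI1 encodes MIG6, a cytoplasmic protein that binds the kinase domain of EGFR family receptors and inhibits it. In thyroid cancer cells carrying other drivers of ERK signaling, ERBB3 is known as a receptor gene that can be derepressed when that signaling is blocked.

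Libraries held 24695040 to 27457040 counts, and the log2 fold changes of all 12794 tested genes were centred near 0. The cells had the thyroid transcription factor transcript PAX8 (18290 to 20771 normalised counts) and FOXE1, whereas NKX2-1 had no read, and TSHR had at most 1.01 normalised counts in a library. Of the epithelial markers the keratin transcripts KRT8 and KRT18 were present and CDH1 and EPCAM had at most 2.88. Of the 4 tested epithelial markers 3 (KRT7, KRT8 and KRT18) were called lower, where 11.3% of all tested genes were. Of the leukocyte markers PTPRC and CD3E had at most 2.94 normalised counts, whereas CD68, a lysosomal protein gene, stood at 2292 to 2664 and did not pass. Of 5 fibroblast markers DCN and COL1A2 had at most 1.06 and PDGFRB, COL1A1 and LUM were present, at 52.4 to 132 normalised counts. The endothelial markers summed to at most 6.04. The fibroblast list summed to 241.2 and 286.7 after RETi and 277.5 and 256.7 after RETi + FGFRi. LUM of that list rose (log2 fold change 0.64, adjusted p = 0.027), and the part of these marker changes in the results was not tested.

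Of the 10 members 9 had reads enough to be tested, and AREG did not. At an adjusted p under 0.05 in edgeR, 3 of the 9 were higher after RETi + FGFRi (ERBB3, EGFR and BTC), where 12.8% of all 12794 tested genes were called higher. Only TGFA was called lower among them, where 11.3% of all tested genes were. The other 5 (ERBB2, EREG, HBEGF, NRG1 and ERRFI1) did not pass. The libraries of the groups did not overlap for 6 of the 9, which were higher in both RETi + FGFRi libraries for 3 (32.1% of all tested genes) and lower in both for 3 (33.0% of them), so separation alone was common. Of the receptors 2 of 3 rose and none fell, whereas of 5 tested ligands 1 rose, 1 fell and 3 did not pass. The median log2 fold change of the 9 members was -0.09, beside 0.00043 over all tested genes.

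EGFR and BTC rose and TGFA fell, and the start-site flanks of these 3 called members are shown, chosen after their values were seen. Each is the 250 bases before a RefSeq start (GRCh38.p14), 5′ to 3′ on the strand of the gene, and for EGFR and TGFA, which have 2 listed starts each, the first listed. The EGFR window is chr7:55018767-55019016 (plus strand), that of TGFA chr2:70553827-70554076 (minus strand), and that of BTC chr4:74794524-74794773 (minus strand). Capitals mark matches on either strand to 4 letter patterns, namely TGANTCA (AP-1), GTAAACA (FOXO), CCGGAAG (ETS) and GGGCGG (SP1).
EGFR: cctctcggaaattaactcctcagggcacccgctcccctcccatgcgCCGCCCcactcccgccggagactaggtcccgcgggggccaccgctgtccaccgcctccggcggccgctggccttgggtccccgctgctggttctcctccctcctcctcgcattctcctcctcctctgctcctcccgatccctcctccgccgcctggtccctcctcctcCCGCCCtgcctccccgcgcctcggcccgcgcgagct
TGFA: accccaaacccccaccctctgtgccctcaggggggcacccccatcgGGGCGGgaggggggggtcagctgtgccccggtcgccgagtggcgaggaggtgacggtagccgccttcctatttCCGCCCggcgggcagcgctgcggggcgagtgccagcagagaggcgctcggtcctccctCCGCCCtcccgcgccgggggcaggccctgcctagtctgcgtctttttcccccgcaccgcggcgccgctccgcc
BTC: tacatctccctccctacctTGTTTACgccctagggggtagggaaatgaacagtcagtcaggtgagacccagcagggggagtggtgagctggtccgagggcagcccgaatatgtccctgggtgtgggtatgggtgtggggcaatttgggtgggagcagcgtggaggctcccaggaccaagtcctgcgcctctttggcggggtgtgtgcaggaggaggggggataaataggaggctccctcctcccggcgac

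The EGFR and TGFA windows were GC-rich, at 73.6% and 75.6%, and held 2 and 3 SP1 matches, a pattern found in 42.6% of the 35116 windows of this length in the RefSeq table. The BTC window held 1 FOXO match, which 2.98% of windows have, and its GC content was 62%. None of the 3 windows shown held an AP-1 match (6.57% of windows) or an ETS match (8.52%), whereas the window at the second listed EGFR start, not shown, held 2 AP-1 matches. Of the 10 members 8 had an entry, and ERBB3 and NRG1 did not match. SP1 matches and high GC content were also found in members that did not pass, with 5 matches for HBEGF (76.4%) and 1 for ERRFI1 (75.2%). The ERBB2 and EREG windows held no SP1 match, and that of ERBB2 held 2 ETS matches and 1 AP-1 match. A match describes letters in a window and does not show that a factor binds there.

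Among the receptors ERBB3 changed most. ERBB3 (ENSG00000065361, chromosome 12, 56473641 to 56497289, hg19) stood at 102 and 80.6 normalised counts in the RETi libraries and at 276.4 and 238.6 in the RETi + FGFRi libraries, from 104, 84, 261 and 237 raw reads. Both RETi + FGFRi libraries were far above both RETi libraries, with means of 257.5 ± 26.7 and 91.3 ± 15.2 (SD, n = 2 each). The fold change was 2.81 (95% interval 2.20 to 3.61; log2 fold change 1.49, SE 0.16, adjusted p = 0.00028, edgeR). The rise ranked 28th by size among the 1643 genes called higher. Without each library in turn the log2 fold change lay between 1.33 and 1.67, and ERBB3 was called every time. In bulk RNA, more cells expressing a gene and more RNA per cell cannot be told apart. ERBB3 overlaps RP11-603J24.9, which had no read in any of the libraries.

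EGFR itself was an abundant transcript and rose less. EGFR (ENSG00000146648, chromosome 7, 55086714 to 55324313) stood at 4801 and 5741 normalised counts after RETi and at 8250 and 7715 after RETi + FGFRi. The groups did not overlap, although the RETi libraries differed from each other by more than the RETi + FGFRi libraries did. The rise was 51.1% (fold change 1.51, 95% interval 1.31 to 1.75; log2 fold change 0.60, SE 0.096, adjusted p = 0.0021, edgeR). The log2 fold change was lowest, at 0.48, without RETi replicate 1 and highest, at 0.73, without RETi replicate 2, and the call held in both. In this table no other gene overlaps EGFR.

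ERBB2, the partner receptor, showed no detectable change. ERBB2 (ENSG00000141736, chromosome 17, 37844167 to 37886679) was at 2229 and 2629 normalised counts after RETi and at 2268 and 2176 after RETi + FGFRi, so the groups overlapped. The log2 fold change was -0.13 (SE 0.089, adjusted p = 0.31), with a 95% interval of -0.33 to 0.07. It was -0.24 without RETi replicate 1 (adjusted p = 0.16) and -0.0068 without RETi replicate 2 (adjusted p = 0.98), in a range of 0.16 to 0.98 over the alternatives. It overlaps MIEN1 and PGAP3, and since the sources do not state whether counting used strand, reads in the overlap are uncertain.

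**Figure D1:**
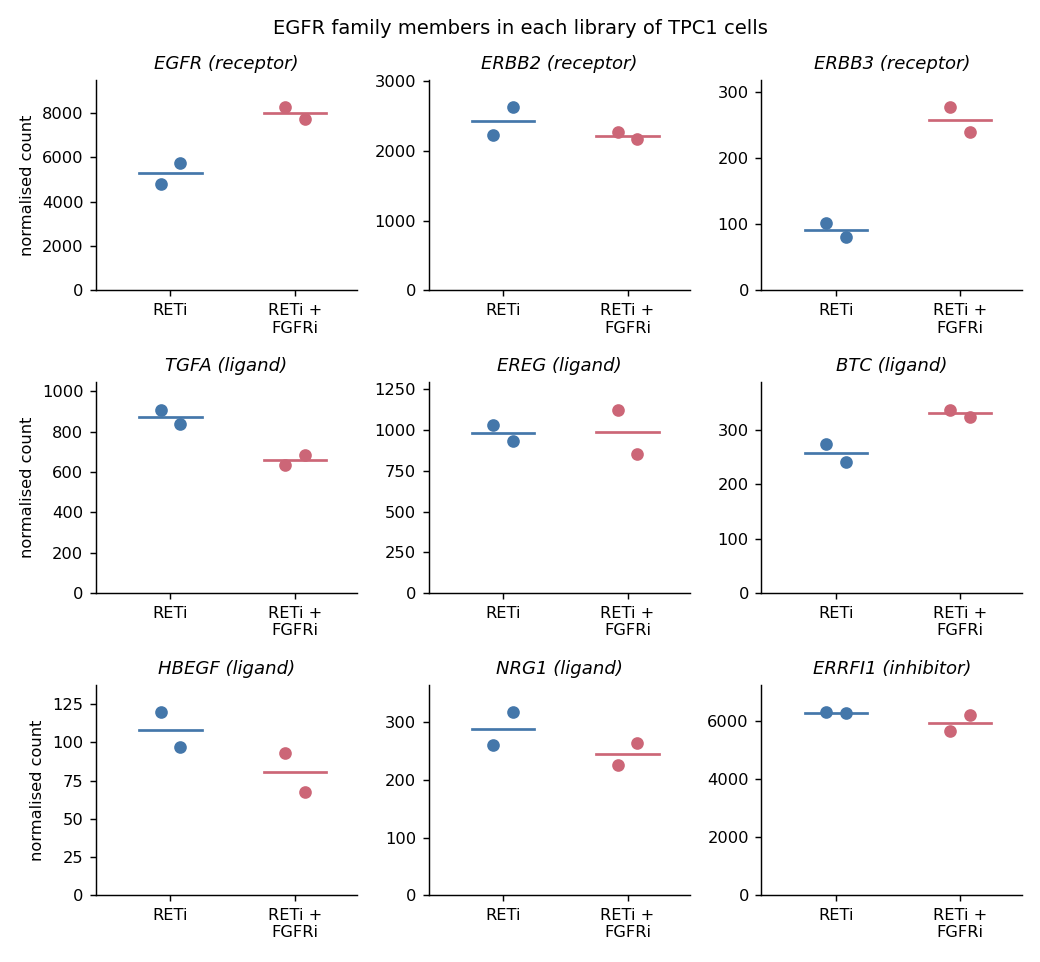
Normalised counts (vertical axes, each from 0) of the 9 tested members in each library, RETi in blue and RETi + FGFRi in red; points are libraries and lines are group means (n = 2). ERBB3 and EGFR are higher in both RETi + FGFRi libraries, TGFA is lower in both, and ERBB2, EREG and NRG1 overlap between the groups.

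The ratio of receptors within 1 library does not depend on how libraries are scaled. The ERBB3 count was 4.58% and 3.06% of the ERBB2 count in the RETi libraries and 12.2% and 10.97% in the RETi + FGFRi libraries. The EGFR count was 2.15 and 2.18 times the ERBB2 count after RETi and 3.64 and 3.55 times after RETi + FGFRi. Both ratios separated the groups without overlap, and EGFR over ERBB2 differed between libraries of a group by far less than between groups. With 2 libraries per group an exact permutation test cannot give a p below 0.33, so no test of these ratios was made.

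Transcript levels of different genes were compared per kilobase of the Ensembl canonical transcript (GENCODE v44), on the scale of normalised counts per kilobase. The counts were made on hg19, so the gene models counted may differ in length from these transcripts, which was not tested. Levels and shares of different genes hold for these lengths only (9905 bases for EGFR and 4557 for ERBB2). On these lengths EGFR and ERBB2 were level with each other after RETi. EGFR was at 484.7 and 579.6 per kilobase in the 2 libraries and ERBB2 at 489.1 and 577.0. After RETi + FGFRi, EGFR was at 832.9 and 778.9 and ERBB2 at 497.8 and 477.4, so EGFR was the higher of the pair in both libraries. ERBB3 was in each library the least abundant of the 3 receptors, at 18.2 and 14.3 per kilobase after RETi and 49.2 and 42.5 after RETi + FGFRi. The share of EGFR in the receptor level was 49.2% ± 0.45 after RETi and 60.2% ± 0.28 after RETi + FGFRi, and that of ERBB3 was 1.53% ± 0.43 and 3.42% ± 0.21 (SD, n = 2 each). The share of ERBB2 was 49.3% ± 0.022 and 36.4% ± 0.48.

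TGFA, which encodes transforming growth factor alpha, was the ligand that fell. TGFA (ENSG00000163235, chromosome 2, 70674412 to 70781325) was at 909.1 and 838.1 normalised counts after RETi and at 636.5 and 684.6 after RETi + FGFRi. Both RETi + FGFRi libraries lay below both RETi libraries. The change was -24.5% (log2 fold change -0.41, 95% interval -0.60 to -0.21, SE 0.087, adjusted p = 0.0081, edgeR). The call was lost without RETi replicate 1 (log2 fold change -0.34, adjusted p = 0.065), and the adjusted p over all alternatives ranged from 0.00049 to 0.065.

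BTC, the gene of betacellulin, which binds EGFR and ERBB4, moved the other way and only just passed. BTC (ENSG00000174808, chromosome 4, 75669969 to 75719896) was at 274.6 and 239.7 normalised counts after RETi and at 336.8 and 324.2 after RETi + FGFRi. The groups did not overlap, and the gap between the nearest libraries was 1.42 times that within the RETi group. The rise was 28.3% (log2 fold change 0.36, 95% interval 0.10 to 0.62, SE 0.12, adjusted p = 0.049, edgeR). DESeq2 did not call it (adjusted p = 0.15), nor did edgeR with no filter on low counts (0.055). Leaving out RETi replicate 1 gave 0.068, RETi replicate 2 gave 0.31 and RETi + FGFRi replicate 1 gave 0.073. Over all alternatives the adjusted p lay between 0.024 and 0.31, on either side of the threshold.

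EREG, which encodes epiregulin, was as abundant per kilobase as TGFA after RETi (213.2 and 212.2 normalised counts per kilobase) and showed no direction. EREG (ENSG00000124882, chromosome 4, 75230860 to 75254468) was at 1033 and 935 normalised counts after RETi and at 1126 and 856 after RETi + FGFRi. The RETi + FGFRi libraries lay on either side of the RETi libraries. The log2 fold change was 0.0072 (95% interval -0.26 to 0.27, SE 0.12, adjusted p = 0.97), and its sign turned under 4 alternatives. Per kilobase, EREG was above TGFA in both RETi + FGFRi libraries (243.9 and 185.4 for EREG, 154.6 and 166.3 for TGFA), and the ratio of the TGFA count to the EREG count was 0.88 and 0.90 after RETi and 0.57 and 0.80 after RETi + FGFRi.

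HBEGF and NRG1 had lower means after RETi + FGFRi, and neither passed. HBEGF, the gene of a heparin-binding ligand that is also the diphtheria toxin receptor (ENSG00000113070, chromosome 5, 139712428 to 139726216), was at 119.6 and 96.9 normalised counts after RETi and at 93.2 and 67.5 after RETi + FGFRi. Its groups did not overlap, though the nearest libraries were close, and 65.1% of all tested genes had groups that did not overlap in either direction. The log2 fold change was -0.44 (95% interval -0.89 to 0.02, SE 0.21, adjusted p = 0.15). Without RETi + FGFRi replicate 1 HBEGF was called lower (log2 fold change -0.68, adjusted p = 0.029), the lowest of a range of 0.029 to 0.56 over the alternatives.

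NRG1, a neuregulin that binds ERBB3, did not pass, unlike that receptor. NRG1 (ENSG00000157168, chromosome 8, 31496902 to 32622548) was at 259.9 and 316.5 normalised counts after RETi and at 225.6 and 262.8 after RETi + FGFRi, and the groups overlapped. The log2 fold change was -0.24 (95% interval -0.54 to 0.06, SE 0.14, adjusted p = 0.22), and without 1 library it ranged from -0.37 (without RETi replicate 1) to -0.09 (without RETi replicate 2). Per kilobase ERBB3 was below NRG1 in both RETi libraries (NRG1 at 21.7 and 26.4) and above it in both RETi + FGFRi libraries (18.8 and 21.9). This order depends on the 1 transcript length used for NRG1 (11983 bases), and other lengths were not tested. In normalised counts ERBB3 was above NRG1 in RETi + FGFRi replicate 1 (276.4 and 225.6). It was below NRG1 in RETi + FGFRi replicate 2 (238.6 and 262.8). NRG2, another neuregulin gene and not a member, was above ERBB3 per kilobase in each library, on the lengths used. It stood at 69.1 and 69.0 after RETi and at 60.5 and 57.0 after RETi + FGFRi, where ERBB3 was at 49.2 and 42.5.

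AREG, which encodes amphiregulin, could not be measured. Its row (ENSG00000109321, chromosome 4, 75310851 to 75320726) held 1 read in RETi replicate 1 and 0 in the other 3 libraries. The hg19 table has a second row for the gene, AREGB (ENSG00000205595, chromosome 4, 75480629 to 75490486), with 3 and 1 reads in the RETi libraries and 0 in both RETi + FGFRi libraries. The ID of AREGB is absent from GENCODE v44, which has 1 AREG locus. The sources do not say how the counting treated reads that match both rows, and the part of this in the counts was not tested. The 5 reads over both rows were not taken as a measure of amphiregulin mRNA, and no fold was computed.

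**Figure D2:**
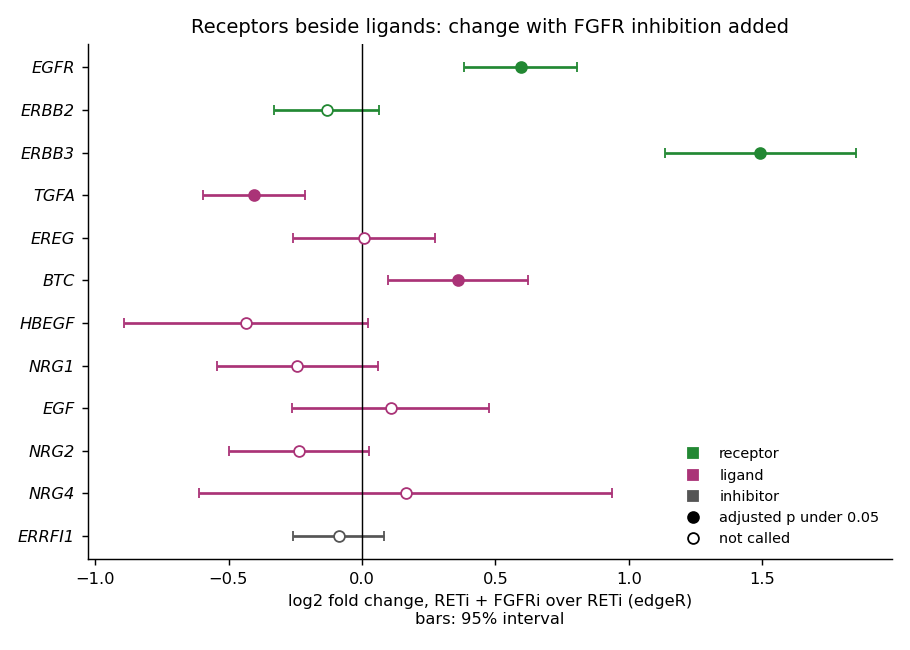
Log2 fold change of RETi + FGFRi over RETi (horizontal axis, edgeR) with 95% intervals for the 9 tested members and for EGF, NRG2 and NRG4; filled points passed an adjusted p under 0.05, green marks receptors, purple ligands and grey the inhibitor ERRFI1. ERBB3 (1.49) and EGFR (0.60) stand to the right, TGFA (-0.41) to the left, and BTC (0.36) has an interval that starts at 0.10.

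The other genes of the family added no call. Of 6 further receptor and ligand genes (ERBB4, EGF, EPGN, NRG2, NRG3 and NRG4) 3 were tested and none passed in edgeR. The count at an unadjusted p under 0.05 was also 0, since the smallest was 0.074 for NRG2. NRG2 was at 270.7 and 270.4 normalised counts after RETi and at 237.2 and 223.5 after RETi + FGFRi (log2 fold change -0.24, SE 0.12, adjusted p = 0.17). EGF, the founding ligand, had a log2 fold change of 0.11 (95% interval -0.26 to 0.48), and NRG4, a ligand of ERBB4, one of 0.16 (-0.61 to 0.94). ERBB4, the remaining receptor, had 3 reads over the RETi libraries and 2 over the RETi + FGFRi libraries, as did the EGFR ligand gene EPGN, and NRG3 had 0 reads in each group, which allows up to 3 by the rule of 3 counts.

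Summed over the 5 tested ligand members, the level per kilobase was 620.5 and 564.0 after RETi and 583.8 and 524.4 after RETi + FGFRi, and the groups overlapped. The sum over the 3 receptors was 992.0 and 1171 after RETi and 1380 and 1299 after RETi + FGFRi, without overlap. The ratio of receptor to ligand level was 1.599 and 2.076 after RETi and 2.364 and 2.477 after RETi + FGFRi. Within the ligand sum the share of TGFA was 35.8% ± 0.36 after RETi and 29.1% ± 3.70 after RETi + FGFRi, and that of BTC 16.4% ± 0.47 and 22.5% ± 1.10, whereas the shares of EREG overlapped (36.0% ± 0.10 and 38.6% ± 4.54; SD, n = 2 each). These sums weigh all ligands alike and describe RNA only. They leave out the ligand genes EGF, NRG2 and NRG4, which are not members. Per kilobase NRG2 had means of 69.0 after RETi and 58.8 after RETi + FGFRi. Those of EGF were 35.3 and 38.1, and those of NRG4 5.58 and 6.29.

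**Figure D3:**
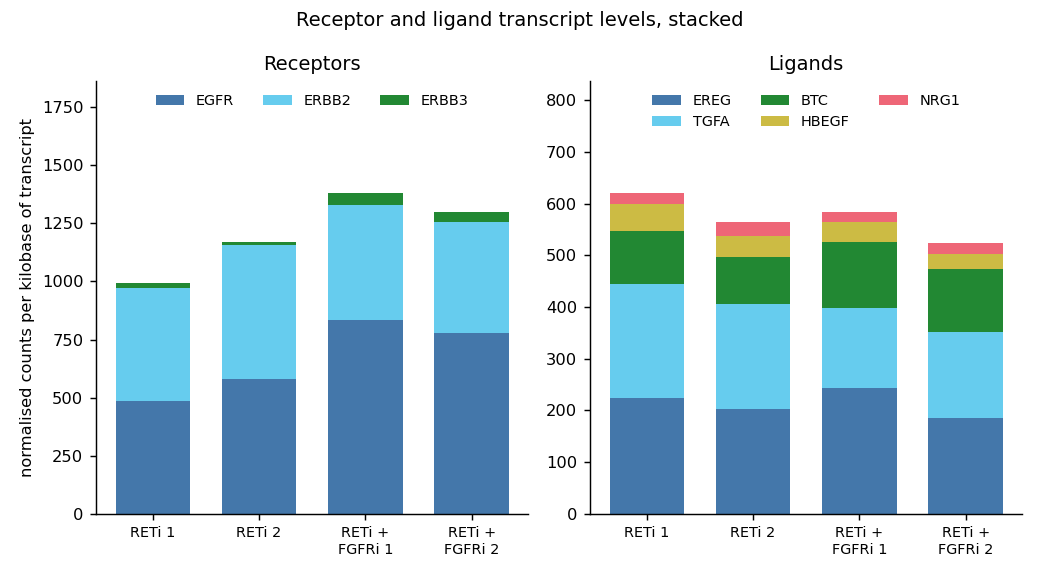
Normalised counts per kilobase of transcript (vertical axes, from 0, on different scales), stacked over the 3 receptors (left) and the 5 tested ligand members (right) in each library. The EGFR segment is larger in both RETi + FGFRi libraries, which brings the receptor sum to 1380 and 1299, and ERBB3 is the thin segment on top; the ligand sums of the groups overlap.

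ERRFI1, the inhibitor of these receptors, was the most abundant of the members per kilobase and did not pass. ERRFI1 (ENSG00000116285, chromosome 1, 8064464 to 8086368) was at 6293 and 6249 normalised counts after RETi and at 5648 and 6190 after RETi + FGFRi. The RETi + FGFRi libraries were both below the RETi libraries, and the nearest pair differed by 0.95%. The log2 fold change was -0.09 (95% interval -0.26 to 0.08, SE 0.078, adjusted p = 0.45), and without 1 library it ranged from -0.15 (without RETi + FGFRi replicate 2) to -0.018 (without RETi + FGFRi replicate 1). The EGFR count was 0.76 and 0.92 times the ERRFI1 count after RETi and 1.46 and 1.25 times after RETi + FGFRi, without overlap. In the same libraries all 10 genes of the MAPK activity score, an index of ERK output, were called lower (median log2 fold change -1.88), the smallest p being those of CCND1 (-2.13), ETV5 (-2.16), DUSP6 (-1.67) and PHLDA1 (-1.25), and 9 were called with DESeq2 and when either RETi library or RETi + FGFRi replicate 2 was left out. Among all tested genes 11.3% were called lower. The study itself selected genes by their fall under these treatments and named SPRY2 and DUSP4 of that list. The count is therefore not evidence independent of the study for any of the 10 genes. ERRFI1 is known as an early response gene of growth factor signaling.

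Ligands of the family are made as membrane precursors and are released by proteases, chiefly ADAM17 and ADAM10. The iRhom proteins guide the transport of ADAM17. Of 11 tested shedding genes 2 fell, none rose and 9 did not pass (median log2 fold change -0.06), whereas 24.1% of all tested genes were called in either direction. RHBDF1, which encodes iRhom1, fell from 1555 and 1726 to 1270 and 1120 normalised counts (log2 fold change -0.46, adjusted p = 0.0057), a call lost without RETi replicate 2 (0.059; range over the alternatives 1.6e-05 to 0.059). ADAM12, a protease gene that can cleave HBEGF, fell from 277.5 and 277.1 to 193.8 and 130.9 (log2 fold change -0.78, adjusted p = 0.0089), and its log2 fold change was -0.51 without RETi + FGFRi replicate 2. RHBDL2 and NRD1 did not pass (log2 fold changes of 0.51 and -0.16, adjusted p = 0.15 for each). ADAM17 and ADAM10 had log2 fold changes of -0.06 and -0.11 and did not pass.

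Of 22 tested genes of receptor trafficking and inactivation, 4 fell, 3 rose and 15 did not pass (median log2 fold change -0.06). So 7 of 22 were called, beside 24.1% of all tested genes. The list mixes genes of opposite effect on the receptors, so these counts give no direction for receptor loss. UBASH3B, which encodes a phosphatase that binds CBL and slows EGFR down-regulation, fell from 2880 and 2990 to 985 and 988 normalised counts, the largest change among the tested genes of this list (log2 fold change -1.58, SE 0.075, adjusted p = 1.2e-06). PTPRJ, a receptor phosphatase gene, fell from 2002 and 2063 to 1118 and 1167 (log2 fold change -0.83, adjusted p = 7.3e-05). PTPN2, a phosphatase gene, and LRIG3, of a family of membrane regulators of EGFR, rose with log2 fold changes of 0.40 and 0.44 (adjusted p = 0.011 and 0.014). Without RETi replicate 2 neither passed (0.12 for each, the highest of ranges that start at 0.00021 for PTPN2 and 0.0022 for LRIG3), no gene of the list rose and 2 fell, and 2 also fell without RETi replicate 1. The ubiquitin ligase genes CBL and CBLB and RNF41, the gene of the ligase that degrades ERBB3, did not pass (log2 fold changes of 0.10, -0.03 and 0.11).

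Among the adaptors and effectors that read active receptors, 5 of 23 tested genes fell, 1 rose and 17 did not pass (median log2 fold change 0.00046). The 6 of 23 called were close to the 24.1% called among all tested genes. NCK1, an SH2 adaptor gene that overlaps IL20RB, rose from 2748 and 2600 to 4143 and 4704 normalised counts (log2 fold change 0.72, adjusted p = 0.00036). Its paralogue NCK2 fell (log2 fold change -0.31, adjusted p = 0.016), as did SRC, a cytoplasmic tyrosine kinase gene (-0.57, adjusted p = 0.00071), and GRB2, which links receptors to SOS and RAS (-0.32, adjusted p = 0.0097). GRB2 and NCK2 did not pass without either RETi library in turn, and the number that fell was then 1 and 1. It was 3 with DESeq2. SHC1, GAB1 and the PI3K subunit gene PIK3R1 did not pass (log2 fold changes of 0.00046, 0.12 and -0.02).

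Transcription factors reported to act on EGFR family receptor genes were the last list. Of 10 tested genes 2 fell, 1 rose and 7 did not pass (median log2 fold change 0.10), and 3 of 10 is near the 24.1% of all tested genes. TFAP2C fell from 207.9 and 195.6 to 140.8 and 104.7 normalised counts (log2 fold change -0.72, adjusted p = 0.011), and GATA3, a low transcript at 29.4 and 34.5 against 14.8 and 13.1, fell (-1.19, adjusted p = 0.024). GATA3 did not pass in DESeq2 (adjusted p = 0.14). Its adjusted p was 0.089 when RETi replicate 1 was left out, 0.19 without RETi replicate 2 and 0.069 without RETi + FGFRi replicate 2, in a range of 0.0089 to 0.19 over the alternatives. ELF3 rose (log2 fold change 0.29, adjusted p = 0.018) but not without RETi replicate 1 (0.092) or RETi replicate 2 (0.15), in a range that starts at 0.0026. CTBP2, a corepressor gene that overlaps ZRANB1, had a log2 fold change of -0.22 (adjusted p = 0.050), just outside the threshold, and passed with limma-voom (0.049) and with the replicate number as a block (0.040), in a range of 0.040 to 0.31. FOXO1, FOXO3 and FOXO4, whose proteins are known to act on ERBB3, did not pass (0.13, 0.14 and 0.20).

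**Figure D4:**
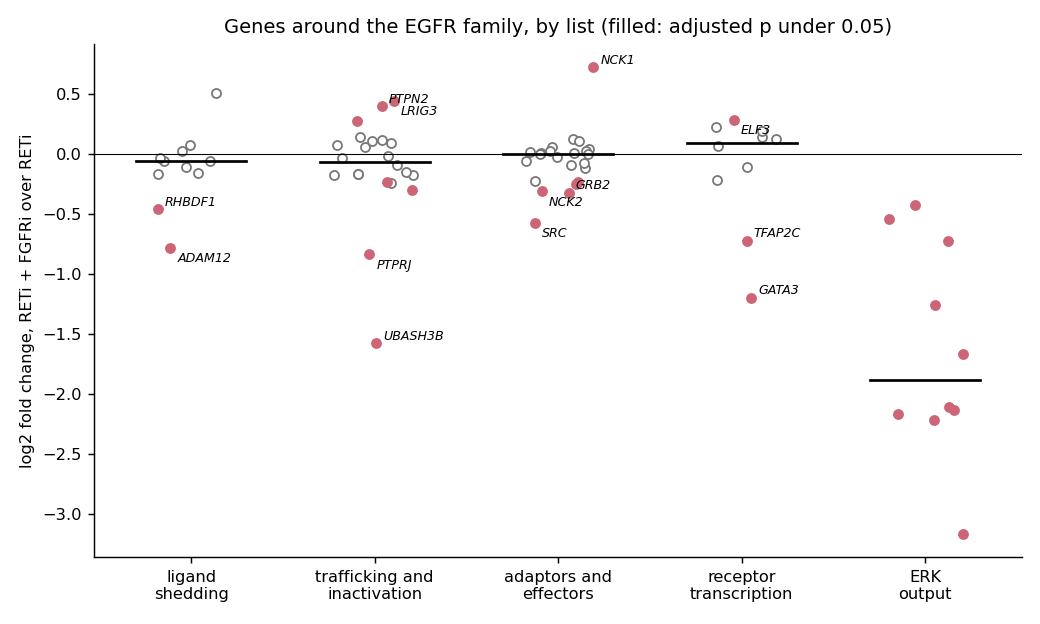
Log2 fold change of RETi + FGFRi over RETi (vertical axis) for each tested gene of 5 lists around the EGFR family; filled points passed an adjusted p under 0.05, bars are list medians, and up to 4 called genes are named in the first 4 lists. Medians of the first 4 lists lie between -0.06 and 0.10 and that of the ERK output list at -1.88.

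**Figure D5:**
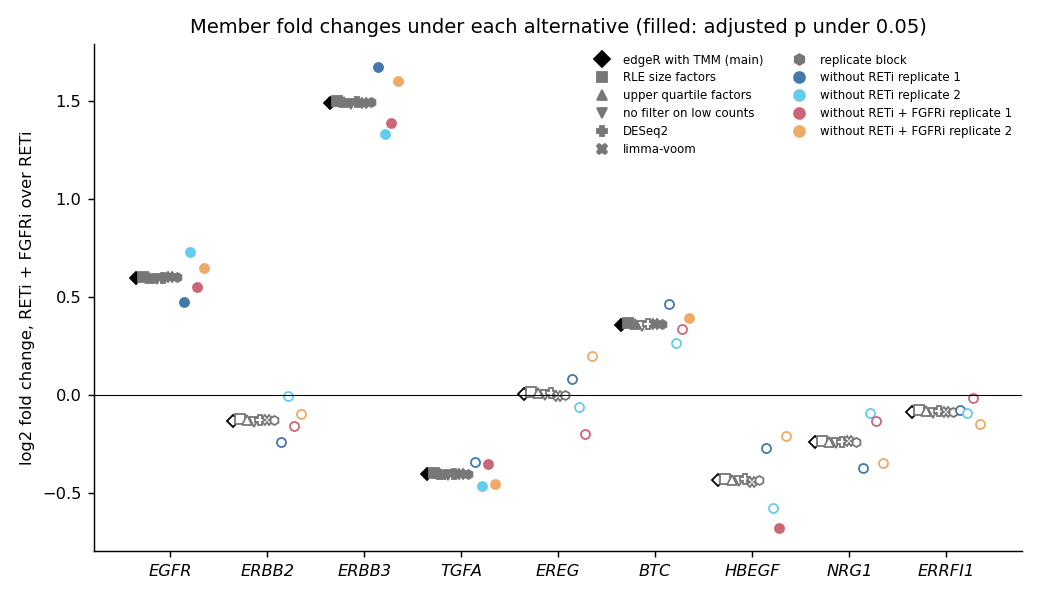
Log2 fold change of the 9 tested members (vertical axis) in the edgeR fit (black) and under each alternative (grey for other normalisations, filters, tests and the replicate block; colours for fits without 1 library), filled where the adjusted p was under 0.05. ERBB3 (1.33 to 1.67 without 1 library) and EGFR (0.48 to 0.73) are filled throughout, TGFA in all but 1 fit, and EREG straddles 0.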

How the data were processed

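RNA of TPC1 cells was sequenced in 4 libraries, 2 per group, grouped by the labels. The submitters' processing notes name STAR 2.3, hg19 and DESeq2, while the counting tool and its use of strand are not given in the sources used here. Raw read counts of 20372 genes were deposited. The deposited normalised counts are a signal, the raw count over a size factor of the library. The columns of the authors' own comparison (fold changes and p-values) were not used. The test on raw counts was the quasi-likelihood F-test of edgeR 4.0.16 in R 4.3.3 (TMM, filterByExpr at 10 reads, no covariates, 4 libraries, 2 residual and 8.96 prior degrees of freedom), with Benjamini-Hochberg adjustment over 12794 genes and a call at an adjusted p under 0.05. The SE is the log2 fold change divided by the square root of F, and intervals are 95%. The fit was also run on counts simulated with a single dispersion for all genes, and no result here rests on that run. Alternatives were RLE and upper quartile factors, no filter, DESeq2 1.42.0, limma-voom (limma 3.58.1), a replicate block and leaving out each library. A fit without 1 library assumes that the lone sample varies like the other group.

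All members were named, and in each list up to 4 tested genes with the smallest p, with further genes of a list named for their role after their values were seen. Levels per kilobase used exon lengths of GENCODE v44. The members and lists were chosen with earlier results of these data known. Whether replicates were separate cultures is not stated in the labels, and p-values then measure only a spread between libraries that may be technical. Gene coordinates are hg19 as in the table, and labels and study methods differ on read length and STAR release. A chi-square statistic of 7.91 (RETi) and 14.0 (RETi + FGFRi) per degree of freedom between libraries of a group was above sampling noise, so none were merged. Some results are not reported here. Limits for counts of 0 cover counting error only.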

Additional observations from a re-analysis of the deposited data

How the results depend on the processing

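ERBB3 and EGFR were called higher in edgeR and under each of the 10 alternatives. BTC had log2 fold changes of 0.35 with no filter on low counts and 0.36 with DESeq2, neither past the threshold, and 0.26 to 0.46 without 1 library. TGFA lay between -0.46 and -0.34 and HBEGF between -0.68 and -0.21 without 1 library. EREG, which was not called, turned its sign with limma-voom (-0.0065), with the replicate block (-0.0023) and without 1 library (-0.20 to 0.20). EGF (-0.17 to 0.35) and NRG4 (-0.066 to 0.38), also not called, did so without RETi + FGFRi replicate 1. Between 2 and 3 members were called higher and 0 to 2 lower without 1 library, and over all genes 691 to 1942 were higher and 553 to 1503 lower. Without RETi replicate 1 these were 850 and 653, and without RETi replicate 2 they were 691 and 553. No member was called lower without RETi replicate 1, whereas HBEGF and TGFA were without RETi + FGFRi replicate 1.

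The labels number both groups 1 and 2, but the deviations of same-numbered libraries had a correlation of 0.025, so the numbers were not taken as pairs. With the replicate block 2041 genes were higher and 1738 lower, against 1643 and 1446, and the 3 members higher and 1 lower were the same genes. With 2 libraries per group BTC, at 239.7 to 336.8 normalised counts, only just passed at a log2 fold change of 0.36, whereas ELF3, at 4047 to 5170, passed at 0.29 (adjusted p = 0.018, edgeR).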

Other observations

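ERBB3 was the member with the smallest p. Over the 4 libraries the genes with the most similar profile, by Euclidean distance of centred log2 normalised counts among 11280 genes (mean level 50 or above), were BCL2A1 (distance 0.33), CRMP1 (0.38) and DPEP1 (0.40). BCL2A1, an anti-apoptotic gene, was at 86.3 and 75.8 normalised counts after RETi and at 317.7 and 251.7 after RETi + FGFRi, and CRMP1 at 509.9 and 497.7 against 1222 and 1067. With 4 libraries in 2 groups such likeness says little more than that the fold changes were of like size (log2 fold changes of 1.81, 1.18 and 1.57, beside 1.49 for ERBB3).

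AREG is not the only gene that this hg19 table lists on 2 rows with almost no read. PIK3R2, a PI3K subunit gene of the adaptor list, also has 2 rows, which held 3 reads over the 4 libraries.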
